A study of Mus musculus with 6 samples.

Results

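The mitochondrial ribosome is the machine that translates the few mRNAs still encoded by mitochondrial DNA, all of which give core subunits of the respiratory chain and ATP synthase. Its RNA is mitochondrial, but its proteins are encoded in the nucleus, made in the cytosol and imported. Heart muscle, which draws most of its ATP from respiration, is rich in mitochondria, and inherited defects of several of these proteins cause cardiomyopathy. The genes described here are the nuclear genes whose mouse symbol begins with Mrpl (large subunit) or Mrps (small subunit) and a number. There were 78 of them, 49 Mrpl and 29 Mrps, among 17441 genes listed in any library. All 78 were listed in all 6 libraries, and all 78 passed the filter on low values.

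RNA was sequenced from hearts of male mice, 12 weeks old by the labels, on a C57BL/6 background. The tissue was taken from below the ligature 3 days after surgery. WT mice had a sham operation (WT sham) or coronary ligation to induce myocardial infarction (WT MI), and *Card9* KO mice had coronary ligation (*Card9* KO MI), with 2 libraries in each group. CARD9 is an adaptor of innate immune signaling. The control mice of the study were WT littermates and C57BL/6 mice. Sham-operated KO mice were not analysed here. Against WT sham, the effects of genotype and of infarction therefore cannot be told apart in *Card9* KO MI. The labels do not say whether the libraries of a group came from separate mice, so p-values measure only the spread between these libraries.

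*Card9* itself was measured as FPKM, a fragment count scaled to gene length and library size. It was at 0.99 and 1.03 after sham surgery, at 3.39 and 5.08 in infarcted WT hearts, and at 9.85 and 6.94 in infarcted hearts labelled *Card9* KO. The level of the targeted gene in hearts labelled KO was thus above and not below that of WT MI, a difference that did not pass the test (log2 fold change against WT MI 0.85, SE 0.23, adjusted p = 0.112). Which exons the KO removes was not given in the sources used here. Every direction given below against WT MI rests on the label. The libraries held an estimated 3026676 to 4286477 fragments, and 1 fragment on a transcript of 1 kb was worth an FPKM of 0.233 to 0.330. The lowest value of a mitochondrial ribosomal protein gene in any library was 5.3, above that step. Short transcripts hold fewer fragments, and the values of *Mrpl11* correspond to an estimated 34.5 to 42.3 fragments per library.

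The 78 genes spanned FPKM values from 5.3 to 527.7, and they did not sit together in the genome. In mm9 they lay on 17 chromosomes, with 11 on chromosome 11 and 8 on chromosome 17. *Mrpl42* (chr10:94943440-94964561, minus strand), a mitochondria-specific protein of the large subunit, was the most abundant. Its FPKM was 491 and 528 in WT sham hearts, 267 and 311 in WT MI hearts and 290 and 312 in *Card9* KO MI hearts. In each of the 6 libraries it was above all the others, and it made up 10.9% to 17.8% of the summed FPKM of the large subunit genes.

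Next in the large subunit came *Mrpl12*, a protein of the stalk that recruits translation factors, with 204 and 172 in WT sham hearts, 179 and 174 in WT MI hearts and 136 and 145 in *Card9* KO MI hearts. By the mean over the 6 libraries *Mrpl30*, *Mrpl23* and *Mrpl34* came next, with 130, 95.2 and 83.2, but *Mrpl4* and *Mrpl52* had nearly the same mean as *Mrpl34*, 83.0 and 82.8. *Mrpl4* was above *Mrpl34* in the group means of WT sham (102 against 94.7) and *Card9* KO MI (68.7 against 64.1), and *Mrpl52* (111 and 99.0) was above it in WT MI. The libraries of *Mrpl23* and *Mrpl34* overlapped in WT MI, so this pair could not be ordered there. *Mrps21* led the small subunit with 207 and 191 in WT sham, and its WT sham libraries overlapped those of *Mrpl12*. By the mean over the 6 libraries *Mrps36*, *Mrps23*, *Mrps18a* and *Mrps15* came next, but the groups did not share this order. In WT MI both *Mrps23* libraries (99.0 and 102) were above both of *Mrps36* (93.3 and 86.8), and the libraries of *Mrps18a* and *Mrps15* overlapped in each group.

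The lowest levels in the large subunit were those of *Mrpl19*, *Mrpl17*, *Mrpl57*, *Mrpl35* and *Mrpl1*, with means over the 6 libraries of 6.47 to 11.9. In the small subunit they were those of *Mrps25*, *Mrps14*, *Mrps11*, *Mrps22* and *Mrps6*, with means of 9.11 to 16.0. Exons of 27 of the 78 genes overlapped another gene on either strand in the mm9 annotation, 6 of them on the same strand, and *Mrpl46* and *Mrps11* overlapped each other. FPKM of such genes can share reads with the neighbor.

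**Figure D1:**
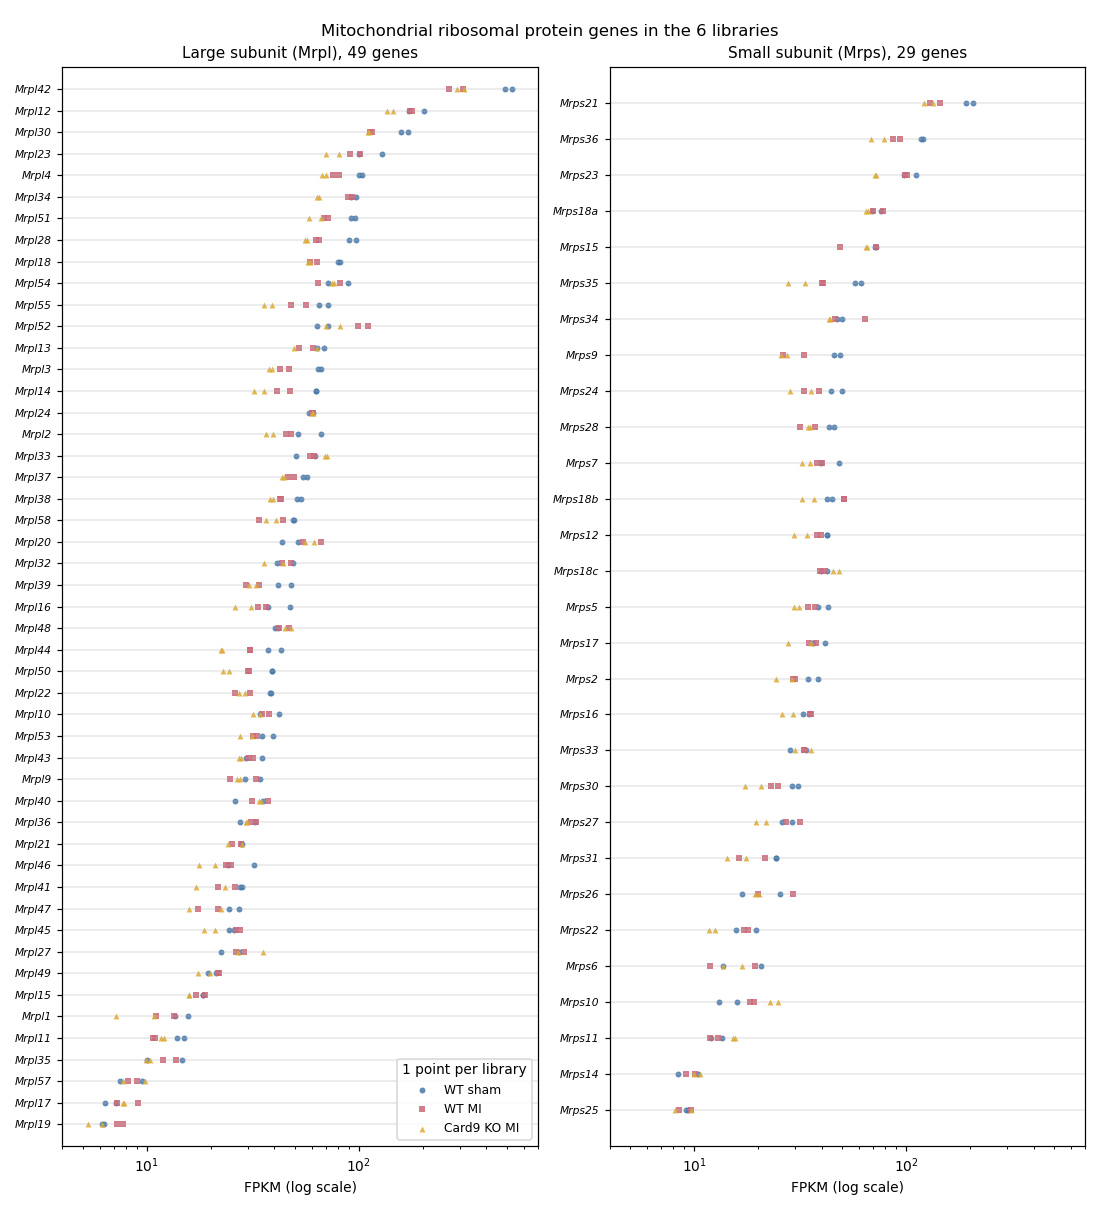
FPKM (log axis) of the 49 Mrpl genes (left) and the 29 Mrps genes (right), ordered by mean FPKM in WT sham, with 1 point per library and 2 libraries per group. Most levels lie between 10 and 100, with *Mrpl42* at 267 to 528, and in many rows the points of *Card9* KO MI are the leftmost.

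The promoters of these genes were examined because the genes moved together in part. Nuclear genes for mitochondrial proteins are known targets of NRF1 and of ETS family factors, among them GABP (also called NRF2). In the RefSeq promoter table (GRCm38.p6), 69 of the 78 genes had an entry, with 75 promoters. The 250 bases before the start were searched on both strands for GCGCA followed by any base and GCGC (NRF1), CCGGAAG (ETS), AAGATGGCG (YY1) and TCAAGGTCA (ERR). Matches of different motifs were counted separately, and 1 promoter held 2 of them. The NRF1 letters were found in 10 of 75 promoters (13.3%) against 3.74% of all 32851 promoters, and the ETS letters in 18 of 75 (24%) against 6.91%. The YY1 letters were found in 2 of 75 (2.67%) against 0.606%, and the ERR letters in 0 of 75 against 0.387%. At least one of the first 3 motifs was present in 29 of 75 (38.7%) against 10.5%. The median GC content was 58.4% against 52.4% of all promoters, and its part in these shares was not tested. All promoters are those of 27025 genes, more than the 17441 listed in any library, whereas all members were listed in all 6 libraries. Shares over listed genes alone were not computed.

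The promoters of 5 genes named in the comparisons below are shown, chosen among those that hold a motif. The promoters of *Mrpl42*, *Mrps9*, *Mrpl28*, *Mrpl14*, *Mrpl55* and *Mrps10*, also named below for their changes, held none of the motifs searched for. The 250 bases before the start are printed 5′ to 3′ on the strand of the gene, with the motif letters on either strand in capitals. *Mrpl44* (chr1:79775768-79776017, plus strand) and *Mrps21* (chr3:95871515-95871764, minus strand) hold the NRF1 letters. *Mrpl3* (chr9:105053018-105053267, plus strand), *Mrpl52* (chr14:54426659-54426908, plus strand) and *Mrpl34* (chr8:71464676-71464925, plus strand) hold the ETS letters. In *Mrps21* and *Mrpl52* the motif reads on the reverse strand. All 5 positions are those of GRCm38.p6.
Mrpl44: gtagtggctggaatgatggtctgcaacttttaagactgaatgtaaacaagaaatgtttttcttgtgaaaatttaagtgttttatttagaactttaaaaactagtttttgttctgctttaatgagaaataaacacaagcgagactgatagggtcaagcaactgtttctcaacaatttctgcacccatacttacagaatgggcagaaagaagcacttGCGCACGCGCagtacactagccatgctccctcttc
Mrps21: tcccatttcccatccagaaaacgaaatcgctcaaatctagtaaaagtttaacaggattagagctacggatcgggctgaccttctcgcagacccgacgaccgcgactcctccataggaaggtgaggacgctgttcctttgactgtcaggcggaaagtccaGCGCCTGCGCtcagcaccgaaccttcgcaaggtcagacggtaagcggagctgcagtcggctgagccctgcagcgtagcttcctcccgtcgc
Mrpl3: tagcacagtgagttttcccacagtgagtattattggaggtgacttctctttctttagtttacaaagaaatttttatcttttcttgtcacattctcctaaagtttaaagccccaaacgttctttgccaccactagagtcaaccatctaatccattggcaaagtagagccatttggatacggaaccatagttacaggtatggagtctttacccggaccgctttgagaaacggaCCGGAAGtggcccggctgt
Mrpl52: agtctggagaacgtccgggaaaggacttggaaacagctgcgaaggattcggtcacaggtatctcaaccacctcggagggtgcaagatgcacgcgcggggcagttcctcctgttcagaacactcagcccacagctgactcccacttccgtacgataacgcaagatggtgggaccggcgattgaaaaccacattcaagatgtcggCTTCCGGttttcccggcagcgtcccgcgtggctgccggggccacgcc
Mrpl34: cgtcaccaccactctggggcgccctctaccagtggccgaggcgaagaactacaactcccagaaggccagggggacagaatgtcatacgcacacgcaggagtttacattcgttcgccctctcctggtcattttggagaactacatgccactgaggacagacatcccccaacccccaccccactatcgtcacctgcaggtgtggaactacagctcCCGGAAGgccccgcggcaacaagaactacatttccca
The motif began 35 bases before the start in *Mrpl44*, 91 in *Mrps21*, 19 in *Mrpl3*, 47 in *Mrpl52* and 37 in *Mrpl34*. As given below, *Mrpl3* fell and *Mrpl52*, the only member called higher there, rose in WT MI. The changes of members with and without a motif were not compared. A match of letters is a description and no measure of binding.

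Summed over the 78 genes, FPKM was 4367 and 4300 in WT sham hearts, 3628 and 3653 in WT MI hearts and 3210 and 3308 in *Card9* KO MI hearts. The libraries of the 3 groups did not overlap. The sum was 16.0% lower in WT MI than in sham hearts, 10.5% lower in *Card9* KO MI than in WT MI, and 24.8% lower in *Card9* KO MI than in WT sham. It was 0.896% of all summed FPKM in WT sham, 0.764% and 0.766% in WT MI hearts and 0.679% and 0.705% in *Card9* KO MI hearts. No test was run on these sums. In bulk tissue, fewer cells of a type and less RNA per cell cannot be told apart. The summed FPKM of 14 cardiomyocyte markers moved with the members', at 56.4% and 58.6% of the WT sham mean in WT MI and 46.9% and 54.3% in the KO libraries, and its part in the changes was not tested.

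Both subunits had lower sums in each infarct group. The 49 Mrpl genes summed to 2983 ± 22.5 in WT sham (SD, n = 2), 2463 ± 26.7 in WT MI hearts and 2229 ± 51.7 in *Card9* KO MI hearts. The 29 Mrps genes summed to 1350 ± 25.2, 1178 ± 9.04 and 1030 ± 17.4 (SD, n = 2). The sum was 17.4% lower for the large and 12.8% lower for the small subunit in WT MI than in sham hearts. Between WT MI and *Card9* KO MI it was 9.51% and 12.6% lower, respectively, in the latter.

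The ratio of the large to the small subunit sum was 2.19 and 2.23 in WT sham hearts, 2.06 and 2.12 in WT MI hearts and 2.16 and 2.17 in *Card9* KO MI hearts. It was lowest in WT MI, and the libraries of the groups did not overlap. No test was run on this ratio. Placing *Mrps30* and *Mrps18a* in the large subunit and leaving out *Mrps36*, as the known structure of the ribosome does, gave 2.37 ± 0.0438, 2.25 ± 0.0557 and 2.29 ± 0.00447 (SD, n = 2). The mean was again lowest in WT MI, but the libraries of the infarct groups then overlapped, with 2.21 and 2.29 in WT MI hearts beside 2.29 and 2.29 in *Card9* KO MI hearts. Without *Mrpl42* and *Mrps21*, the most abundant member of each subunit, the ratio was 2.16 and 2.14 in WT sham and 2.16 and 2.12 in *Card9* KO MI, so these 2 groups overlapped and their separation rested on that pair. As a ratio of medians it was highest in *Card9* KO MI, at 1.18 against 1.08 in WT sham and 1.06 in WT MI hearts.

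**Figure D2:**
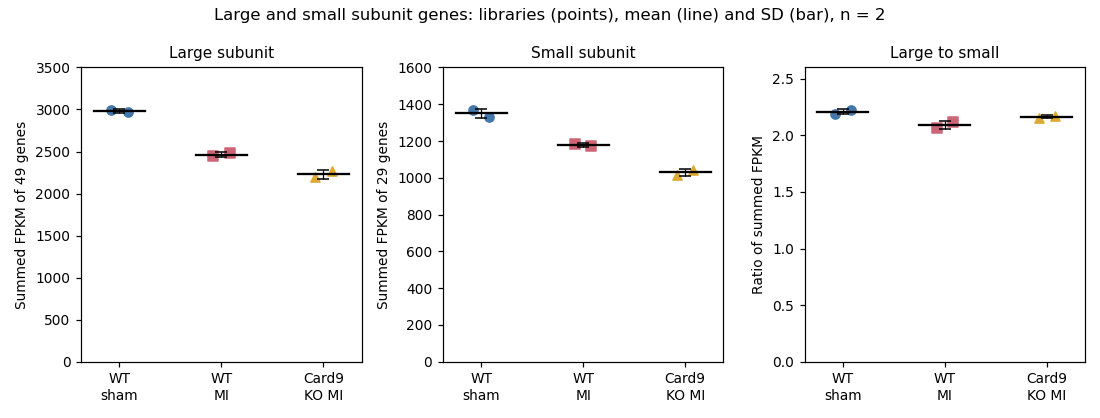
Summed FPKM of the 49 large subunit genes, summed FPKM of the 29 small subunit genes and their ratio, for each library (points), with the group mean (line) and SD (bar), n = 2. Both sums step down from WT sham through WT MI to *Card9* KO MI, while the ratio stays between 2.06 and 2.23.

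Infarction in WT mice was compared first. Of the 78 genes, 20 were lower in WT MI than in sham hearts, 1 was higher and 57 did not pass the test (limma, adjusted p below 0.05 over all 13120 genes tested). The 20 are 25.6% of the members, against 9.39% of all genes tested that were called lower, and 27.7% of all genes were called higher. The median log2 fold change was -0.14 for the members and 0.19 for all genes tested. The scaling moved the median of all genes, from 0.19 as deposited to 0.05 with upper-quartile scaling, -0.09 with quantile normalization and 0.06 without the 100 most abundant genes. Relative to it, the members' median was at -0.33, -0.35, -0.24 and -0.35. With upper-quartile scaling 29 members were lower, beside 14.1% of all genes lower and 21.6% higher, and with quantile normalization 30, beside 18.7% lower and 16.8% higher. In 35 genes both WT MI libraries were below both WT sham libraries (22.1% of all genes tested), and in 10 both were above (48.3%). The count of 20 rested on all 4 libraries, since fewer members, and fewer of all genes, were called lower with any 1 left out. Each such fit leaves 1 library in a group. The members' median was then -0.20 to -0.11, beside 0.18 to 0.19 for all genes.

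*Mrpl42* changed the most, from a mean of 509 ± 25.9 to 289 ± 31.2 FPKM (SD, n = 2), a fall of 43.2%. Its log2 fold change was -0.82 (SE 0.10, adjusted p = 0.000888). *Mrps9* (chr1:42908078-42962527, plus strand), a small subunit protein of bacterial origin, had 48.9 and 46.0 in WT sham and 26.4 and 33.2 in WT MI (log2 fold change -0.66, SE 0.13, adjusted p = 0.00565). No library of one group reached the other group for either gene.

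*Mrps35* (chr6:146991286-147019425, plus strand), a mitochondria-specific small subunit protein, fell from 57.3 and 61.3 to 40.3 and 40.5. Its log2 fold change was -0.54 (SE 0.11, adjusted p = 0.00832). *Mrpl28* (chr17:26260465-26263558, plus strand), a large subunit protein of bacterial origin, fell from 96.7 and 90.3 to 64.9 and 62.9, by 0.54 (SE 0.09, adjusted p = 0.00289). These falls were 31.9% and 31.6% of the WT sham mean.

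*Mrpl3* (chr9:104955569-104979796 in mm9, plus strand) lies close to the catalytic center of the large subunit, and defects of the human gene cause cardiomyopathy. It had 66.3 and 64.4 in WT sham and 42.4 and 47.0 in WT MI, a log2 fold change of -0.54 (SE 0.10, adjusted p = 0.00427). *Mrps21* (chr3:95666557-95675442 in mm9, minus strand) had 207 and 191 in WT sham and 145 and 130 in WT MI, a change of -0.53 (SE 0.10, adjusted p = 0.00557). The other 14 members called lower changed by -0.52 (*Mrpl30*) to -0.29, and among them was *Mrpl44*, another gene linked to cardiomyopathy in people, which changed by -0.37 (SE 0.11, adjusted p = 0.0327). Of the members called lower, 6 held in all 15 alternative settings, *Mrpl3*, *Mrpl28*, *Mrpl30*, *Mrpl42*, *Mrps9* and *Mrps21*. These 15 settings kept the call rule. Where a fold change of at least 2 was also asked for or the screen of the study was recomputed, 0 members were called. Of all genes, 1.36% and 0.906% were then lower and 11.7% and 6.06% higher.

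*Mrpl52* (chr14:55045746-55048587 in mm9, plus strand), a mitochondria-specific large subunit protein, was the member that rose. Its FPKM was 63.6 and 71.5 in WT sham hearts, 111 and 99.0 in WT MI hearts and 81.3 and 70.2 in *Card9* KO MI hearts. The log2 fold change of WT MI against WT sham was 0.63 (SE 0.12, adjusted p = 0.00469), and it was called in all 15 alternative settings. Without WT sham replicate 2, 2 members were called higher in place of 1. With 1 annotated transcript, its values correspond to an estimated 82.6 and 89.2 fragments in WT sham and 184 and 160 in WT MI. In *Card9* KO MI its libraries overlapped those of WT sham (0.16, SE 0.12, adjusted p = 0.284) and lay below those of WT MI, a difference that did not pass the test (-0.47, SE 0.12, adjusted p = 0.0961).

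For many other members no difference passed the test. The WT MI and WT sham libraries of *Mrpl24*, chosen after its values were seen, ranged only from 58.2 to 60.9 FPKM, and the 95% interval of its log2 fold change ran from -0.18 to 0.23. *Mrpl12* differed by -0.09 (SE 0.10, adjusted p = 0.555) and *Mrps18a* by 0.02 (adjusted p = 0.91) in the limma fit, and the adjusted p of *Mrps22* was 0.999. *Mrps6*, whose libraries differed the most, had 20.8 and 13.7 in WT sham and 11.8 and 19.4 in WT MI, so no difference could be seen beyond that spread.

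**Figure D3:**
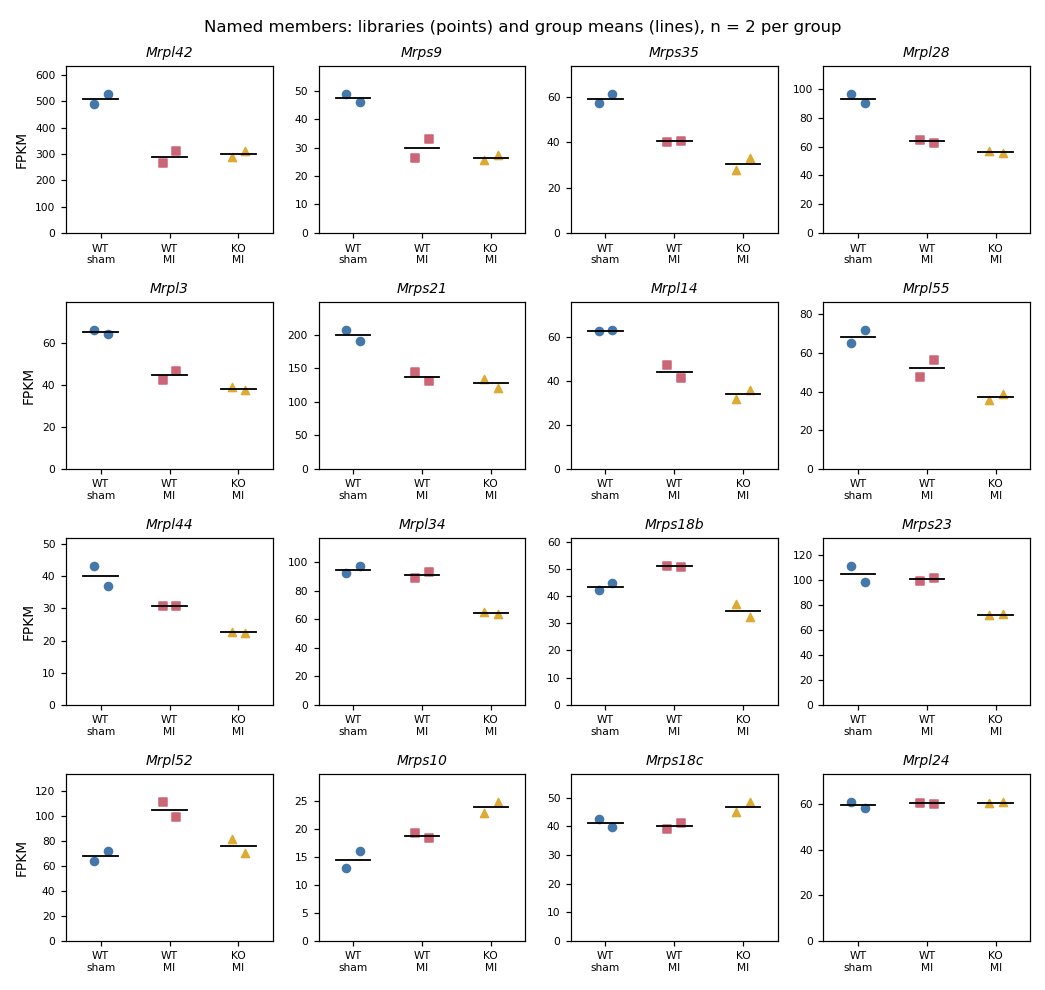
FPKM of 16 members in each library (points, 2 per group) with group means (lines) for the 3 groups, each axis starting at 0. The mean of *Mrpl42* is 43.2% lower in WT MI than in sham hearts, *Mrpl52* has its highest points in WT MI hearts and *Mrps10* in *Card9* KO MI hearts, the *Card9* KO MI points of *Mrpl34*, *Mrps18b* and *Mrps23* lie below those of both other groups, and all 6 points of *Mrpl24* lie between 58.2 and 60.9 FPKM.

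The second comparison asked how the libraries labelled *Card9* KO differed from WT post-MI. Of the 78 members 1, *Mrpl34*, was called lower, and 0 were called higher in the limma fit. That is 1.28% of the members, beside 0.587% of all genes tested called lower and 0.816% called higher, so the count of calls is near the background. In either direction, 1.4% of all genes were called here, 37.1% in WT MI against WT sham and 49.1% in *Card9* KO MI against WT sham. At an unadjusted p below 0.05, 18 members were lower (23.1%) and 2 higher (2.56%), beside 8.57% and 11.5% of all genes tested. The median log2 fold change was -0.17 for the members and 0.04 for all genes, and 61 of the 78 members were below 0. In 43 members both *Card9* KO MI libraries were below both WT MI libraries, and in 5 both were above. Over all genes tested these shares were 21.9% and 30.8%. With a median SE of 0.12, differences of the size of the median were not detectable for a single gene.

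*Mrpl34* (chr8:73988825-73989651 in mm9, plus strand) encodes a small, basic protein of the large subunit. It had 92.2 and 97.2 in WT sham hearts, 88.7 and 93.2 in WT MI hearts and 64.8 and 63.3 in *Card9* KO MI hearts. Against WT MI the mean was 29.6% lower (log2 fold change -0.50, SE 0.09, adjusted p = 0.0472). The call held in 6 of 15 alternative settings, with adjusted p from 0.0365 to 0.264, and in 0 of the 4 fits that left out WT MI replicate 1 or 2 or *Card9* KO MI replicate 1 or 2. Its log2 fold change in those 4 fits kept its sign, between -0.53 and -0.46.

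*Mrps18b* had 51.1 and 50.8 in WT MI hearts and 37.0 and 32.3 in *Card9* KO MI hearts (log2 fold change -0.55, SE 0.10, adjusted p = 0.0566). *Mrps23*, a mitochondria-specific small subunit protein, had 99.0 and 102 against 71.4 and 72.3 (-0.48, SE 0.10, adjusted p = 0.059). Neither passed the test, although the libraries of the groups did not overlap. *Mrpl44*, a protein with a ribonuclease III fold, had 30.8 and 30.8 in WT MI hearts and 22.7 and 22.4 in *Card9* KO MI hearts (-0.43, SE 0.11, adjusted p = 0.0992).

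The 3 proteins related to bacterial S18 are given side by side. *Mrps18a* sits in the large subunit, *Mrps18b* and *Mrps18c* at different places of the small one, and *Mrps18c* takes the place of the bacterial protein. *Mrps18c* had 39.2 and 41.3 in WT MI hearts and 45.2 and 48.5 in *Card9* KO MI hearts (log2 fold change 0.21, SE 0.10, adjusted p = 0.28). *Mrps18a* had 69.5 and 78.1 against 66.4 and 64.6 (-0.17, adjusted p = 0.41). None of the 3 passed the limma test, and the difference between them was not tested.

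Compared with WT sham, 41 members were lower in *Card9* KO MI, 1 was higher and 36 did not pass the test. The 41 are 52.6% of the members, against 14.3% of all genes tested called lower, and 34.8% of all genes were called higher. With upper-quartile scaling and quantile normalization, 50 and 54 members were lower, beside 19.3% and 26.2% of all genes lower and 27.6% and 21.0% higher. The median log2 fold change was -0.34 for the members and 0.24 for all genes. In 55 members both libraries were below both of WT sham (24.5% of all genes), and in 7 both were above (51.6%). Fewer members than these 41, and fewer of all genes, were called lower with any 1 of the 4 libraries left out. Each such fit leaves 1 library in a group. The members' median was then -0.36 to -0.31, beside 0.21 to 0.27 for all genes. This comparison shares its WT sham libraries with the first one and its KO libraries with the second one, so the counts are not independent of each other.

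*Mrps35* was lower the most, at 27.7 and 33.2 FPKM in *Card9* KO MI against 57.3 and 61.3 in WT sham, a log2 fold change of -0.94 (SE 0.11, adjusted p = 0.000421). *Mrpl14* (chr17:45823271-45835444, plus strand), which lies at the interface of the subunits, had 62.5 and 63.2 in WT sham hearts, 47.4 and 41.2 in WT MI hearts and 31.9 and 35.9 in *Card9* KO MI hearts. Its log2 fold change against WT sham was -0.87 (SE 0.11, adjusted p = 0.000523). The fall was 48.6% of the WT sham mean for *Mrps35* and 46.0% for *Mrpl14*.

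*Mrpl55* (chr11:59015988-59019636, plus strand) is the mitochondrial form of bacterial L31. It had 65.1 and 71.9 in WT sham hearts, 47.7 and 56.4 in WT MI hearts and 35.6 and 39.0 in *Card9* KO MI hearts, -0.86 against WT sham (SE 0.12, adjusted p = 0.000762). *Mrps9* was at 25.8 and 27.3 in *Card9* KO MI (-0.82, adjusted p = 0.00146). *Mrpl44* (chr1:79772593-79778020 in mm9, plus strand) was at 43.2 and 37.1 in WT sham and 22.7 and 22.4 in *Card9* KO MI (-0.80, SE 0.11, adjusted p = 0.000773). Exons of *Mrpl14* and *Mrpl44* overlap *Tmem63b* and *Wdfy1* on the opposite strand.

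The libraries of *Mrpl42* overlapped between the infarct groups, with log2 fold changes of -0.76 against WT sham (adjusted p = 0.000781) and 0.06 against WT MI (95% interval -0.18 to 0.30). The other members called lower in *Card9* KO MI changed by -0.75 (*Mrpl3*) to -0.32 (*Mrps18b*). Among them were *Mrpl12* (-0.42, adjusted p = 0.0125), *Mrps22* (-0.49, adjusted p = 0.0186), *Mrps12* (-0.40, adjusted p = 0.016) and *Mrps30* (-0.62, adjusted p = 0.0042). *Mrps12* belongs to the decoding site, and defects of human *MRPS22* impair mitochondrial translation, as do those of *MRPS16*. *Mrps16* did not pass the test (-0.28, adjusted p = 0.057), and neither did *Mrpl58*, a peptidyl-tRNA hydrolase built into the large subunit (-0.34, adjusted p = 0.0723). Of the 41, 20 were called in all 15 alternative settings.

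*Mrps10* (chr17:47505836-47518366, plus strand), a small subunit protein of bacterial origin, was the member that rose. It had 13.1 and 15.9 in WT sham hearts, 19.3 and 18.3 in WT MI hearts and 22.8 and 24.8 in *Card9* KO MI hearts. The log2 fold change of *Card9* KO MI against WT sham was 0.68 (SE 0.13, adjusted p = 0.00362), and it was called in all 15 alternative settings. Against WT MI it was 0.33 (SE 0.13, adjusted p = 0.216). Without WT sham replicate 1, or without *Card9* KO MI replicate 2, 2 members were called higher in place of 1.

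Across the groups, 46 of 78 members (59.0%) had means in the order WT sham, WT MI, *Card9* KO MI from high to low, as had 19.6% of all genes tested. The mean of *Card9* KO MI was the lowest in 58 members (74.4%) against 26.1% of all genes. These shares count the order of means only and carry no test. The 2 libraries of a group differed in a member by a median of 0.14 on the log2 scale in WT sham, 0.12 in WT MI hearts and 0.10 in *Card9* KO MI hearts, which is of the size of many steps between groups. The widest pair within each group was that of *Mrps6* in WT MI (0.67) and in WT sham (0.57), and that of *Mrpl1* in *Card9* KO MI (0.54).

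Members with bacterial homologues and members classed as mitochondria-specific were set beside each other. The second class includes *Mrps18a* and *Mrps18b*, which are related to bacterial S18 as given above. By symbol, 30 Mrpl genes and 16 Mrps genes have bacterial homologues, 19 Mrpl and 12 Mrps genes are mitochondria-specific, and *Mrps36* belongs to neither. In WT MI against WT sham the medians were -0.18 and -0.19 for the large subunit classes and -0.15 for the small subunit genes of bacterial origin. The 12 mitochondria-specific Mrps genes had a median of 0.01, with 1 of them, *Mrps35*, called lower (8.33%, near the 9.39% of all genes).

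In *Card9* KO MI against WT MI these 12 were all below 0, with a median of -0.31 and 0 called in the limma fit. At an unadjusted p below 0.05, 6 of the 12 were lower and 0 higher, beside the 8.57% and 11.5% of all genes. The other classes had medians of -0.15, -0.14 and -0.13, and 43.7% of all genes tested were below 0. Against WT sham the 4 classes came out at -0.34, -0.34, -0.32 and -0.35. The first and second comparisons share the WT MI libraries, so their class medians are not independent of each other. Whether the classes differ was not tested. Besides *Mrps35*, the class holds *Mrps18b*, *Mrps22* and *Mrps23*, and also *Mrps18a* and *Mrps30*, which sit in the large subunit.

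**Figure D4:**
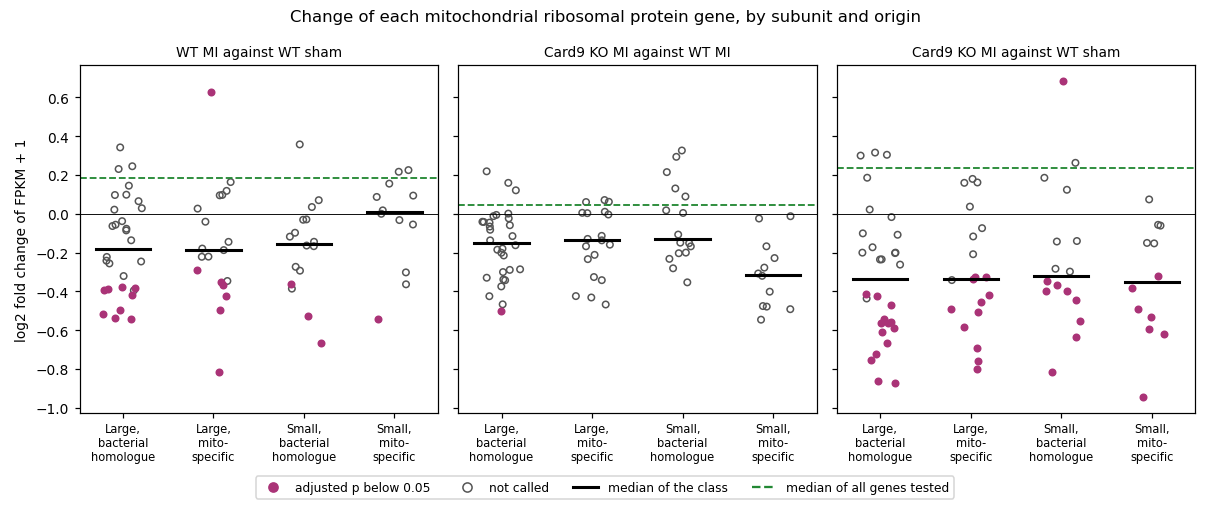
Log2 fold change of FPKM + 1 of each member in the 3 comparisons, by subunit (of the symbol) and origin, with filled points for adjusted p below 0.05, a black line for the median of the class and a dashed line for the median of all genes tested. Class medians lie below the dashed line in all 3 panels, and in *Card9* KO MI against WT MI all 12 mitochondria-specific Mrps genes lie below 0.

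*Mrps36* carries the name of a ribosomal protein but is a subunit of the 2-oxoglutarate dehydrogenase complex of the citric acid cycle. It had 120 and 118 in WT sham hearts, 93.3 and 86.8 in WT MI hearts and 68.6 and 79.1 in *Card9* KO MI hearts. It was lower than WT sham in both infarct groups (-0.40, adjusted p = 0.0178, and -0.68, adjusted p = 0.00112). Conversely, 5 genes of the ribosome with other names were measured. *Ptcd3*, an RNA-binding protein at the mRNA entry of the small subunit, had 64.4 and 59.9 in WT sham hearts, 43.6 and 46.0 in WT MI hearts and 34.5 and 37.0 in *Card9* KO MI hearts (-0.46 in WT MI, SE 0.10, adjusted p = 0.00845, and -0.78 in *Card9* KO MI, adjusted p = 0.000505). *Dap3*, *Chchd1*, *Aurkaip1* and *Gadd45gip1* did not pass the test in WT MI, at -0.21, -0.05, -0.24 and -0.31. In *Card9* KO MI against WT sham, *Dap3* (-0.42, adjusted p = 0.0458) and *Gadd45gip1* (-0.40, adjusted p = 0.0203) were also lower, and 0 of the 5 passed against WT MI in the limma fit, with 1 at an unadjusted p below 0.05.

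Genes that build the ribosome and serve translation were given in 4 further lists. Of 30 assembly factors, 4 were lower (13.3%, near the 9.39% of all genes) and 0 higher in WT MI than in sham hearts, with a median of -0.14. *Ndufab1*, the mitochondrial acyl carrier protein that is also a subunit of complex I, changed by -0.67 (adjusted p = 0.000854), and *Gtpbp10*, a GTPase of large subunit assembly, by -0.51 (adjusted p = 0.032). In *Card9* KO MI against WT sham, 10 were lower (33.3%, beside 14.3% of all genes) and 1 higher. Of 15 translation factors tested, 5 were lower in WT MI hearts (33.3%) and 7 (46.7%) in *Card9* KO MI hearts than in WT sham, and 0 were higher. Of all genes, 9.39% and 14.3% were lower and 27.7% and 34.8% higher. The elongation factors *Gfm1* (-0.60, adjusted p = 0.00958) and *Tufm* (-0.56, adjusted p = 0.00308) changed the most in WT MI.

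The mitochondrial tRNA synthetases, which charge tRNA with amino acids, gave calls in both directions. Of 17, 2 were lower (11.8%, near the 9.39% of all genes) in WT MI than in sham hearts, *Cars2* (-0.80, adjusted p = 0.0115) and *Fars2* (-0.57, adjusted p = 0.00988), and 2 were higher, *Pars2* (0.60, adjusted p = 0.0404) and *Rars2* (0.41, adjusted p = 0.0395). Compared with WT sham, 3 were lower (17.6%, near the 14.3% of all genes) and 0 higher in *Card9* KO MI. Of 13 genes that transcribe and copy mitochondrial DNA, 2 were lower in WT MI (15.4%), the helicase *Twnk* (-0.57, adjusted p = 0.0123) and the transcription factor *Tfb2m* (-0.47, adjusted p = 0.0375). The KO comparison with WT sham gave 4 lower (30.8%, beside 14.3% of all genes) and 1 higher. Against WT MI, limma called 0 genes of these 4 lists in *Card9* KO MI, with 8 of 30, 3 of 15, 6 of 17 and 2 of 13 lower and 0 higher at an unadjusted p below 0.05, where 8.57% of all genes were lower and 11.5% higher. The 13 mRNAs encoded by mitochondrial DNA were looked up by symbol, and 0 were found among the genes listed.

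The nuclear-encoded subunits of the respiratory chain and ATP synthase, which join the products of the mitochondrial ribosome, were lower in larger number. Of 81 tested, 72 were lower and 1 higher in WT MI than in sham hearts (median -0.57), and 75 were lower and 1 higher in *Card9* KO MI than in WT sham (median -0.73). The 78 proteins of the cytosolic ribosome went the other way, with 76 higher and 0 lower in both (medians 0.73 and 0.84). Of all genes, 9.39% were lower and 27.7% higher in WT MI, and 14.3% lower and 34.8% higher in *Card9* KO MI, than in WT sham. Against WT MI the medians in *Card9* KO MI were -0.14 and 0.11, with 0 called in either list by limma, and 15 respiratory chain genes lower and 3 cytosolic ribosomal genes higher at an unadjusted p below 0.05. As summed FPKM in percent of the WT sham mean, the mitochondrial ribosomal protein genes were at 83.7% and 84.3% in WT MI hearts and 74.1% and 76.3% in *Card9* KO MI hearts. The respiratory chain genes were at 65.5% and 65.1%, then 55.5% and 61.6%, and the cytosolic ribosomal genes at 163% and 162%, then 185% and 167%. Whether the lists differ from each other was not tested.

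**Figure D5:**
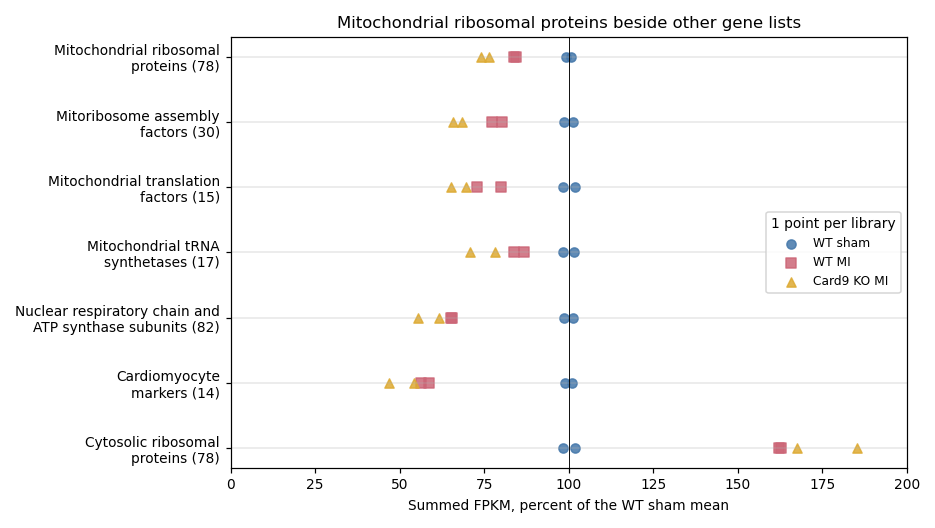
Summed FPKM of 7 gene lists in percent of the WT sham mean, with 1 point per library, 2 libraries per group and the number of genes in brackets. Mitochondrial ribosomal protein genes lie at 74.1% to 84.3% in the infarct groups, above the respiratory chain subunits (55.5% to 65.5%) and cardiomyocyte markers (46.9% to 58.6%), while cytosolic ribosomal genes lie at 162% to 185%.

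Marker lists of the cell types of the heart moved in different directions. In WT MI against WT sham, 9.39% of all genes tested were called lower and 27.7% higher. The 14 cardiomyocyte markers summed to 68110 to 69504 FPKM in WT sham, 38801 to 40334 in WT MI and 32275 to 37369 in *Card9* KO MI, with *Myl7* listed in neither infarct group. Of 13 tested, 10 were lower in WT MI hearts and 13 in *Card9* KO MI hearts than in WT sham, and 0 were called against WT MI by limma (median -0.14, 5 lower at an unadjusted p below 0.05). All 12 macrophage markers were higher in both infarct groups than in WT sham, and they summed to 364 to 426, 1471 to 1869 and 2157 to 2975, and the 10 fibroblast markers, 7 of them higher and 1 lower in WT MI, to 540 to 563, 1562 to 2092 and 3175 to 3298. Against WT MI, 3 fibroblast markers were higher in *Card9* KO MI and 0 macrophage markers were called by limma, with 6 higher at an unadjusted p below 0.05. The 7 neutrophil markers measured were higher in both infarct groups and summed to 5.4 to 7.87, 98.0 to 227 and 48.5 to 61.7, with *Ly6g* not listed.

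The 9 endothelial markers summed to 367 to 378, 387 to 389 and 443 to 456. In WT MI 2 of them were higher and 1 lower than in sham hearts, near the 27.7% and 9.39% of all genes. The 10 markers of cycling cells, 9 of them higher, summed to 7.58 to 8.87, 60.2 to 77.1 and 107 to 132. Of 3 lymphocyte markers tested 1 was higher, also near the 27.7%. The lymphocyte list summed to 3.33 to 4.04, 4.86 to 7.92 and 5.91 to 8.41. Of 3 adipocyte markers tested 0 were called by limma in WT MI, also 0 at an unadjusted p below 0.05 (12.8% of all genes lower and 33.9% higher), and the 6 measured summed to 510 to 597, 473 to 497 and 606 to 630, and the 6 erythroid markers, 4 of 5 tested higher in WT MI than in sham hearts, to 778 to 1750, 2925 to 4585 and 1445 to 2823. *Lep* and *Hbb-bt* of these lists were not listed. Between *Card9* KO MI and WT MI, limma called 0 genes of the neutrophil, endothelial, lymphocyte, cycling, adipocyte and erythroid lists. At an unadjusted p below 0.05, 3 neutrophil and 1 erythroid marker were lower in the KO libraries, and 3 endothelial, 6 cycling, 1 adipocyte and 0 lymphocyte markers were higher. The part of these shifts in the changes of the mitochondrial ribosomal protein genes was not tested.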

How the data were processed

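Total RNA of heart tissue was extracted with TRIzol, poly(A) RNA was made into TruSeq libraries, and the filtered reads were mapped to mm9 with BWA and Bowtie2, per the submitters' processing notes and methods. The FPKM values deposited by the authors have 2 decimals, are indexed by NCBI gene number and leave out genes at 0. Strand setting and annotation were not given in the sources used here, and FPKM shifts for all genes when a few abundant ones change.

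Symbols were taken from a GRCm38.p6 table, used for names only (17390 of 17441 gene numbers matched, 51 did not), mm9 positions from GENCODE, and promoters from RefSeq (GRCm38.p6). Genes not listed were set to 0. Groups followed the labels. Depth was estimated from the spacing of low FPKM values of 4152 genes with 1 transcript (largest error in 4 simulated libraries 0.154%). With these estimates 67.7% to 74.9% of low values came out within 0.1 of a whole fragment, so counts were not rebuilt. Fragments cover counting error only.

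Log2(FPKM + 1) was fitted for the 13120 genes that reached an FPKM of 1 in 2 or more libraries with limma 3.58.1 (R 4.3.3, lmFit, eBayes with trend), the 3 groups in 1 fit without covariates. P-values were adjusted by Benjamini-Hochberg over all genes tested, and calls have an adjusted p below 0.05. Fold changes are on this scale and understate those of low genes. A permutation test of 2 against 2 libraries cannot go below p = 0.333 (exact, two-sided), and none was run. The fit was tested on simulated data. The study's NOIseq screen (fold change of at least 2, probability of at least 0.8) was recomputed as an alternative. Summaries and plots used Python 3.11.15, numpy 2.4.6, pandas 2.3.3 and matplotlib 3.10.9.

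Members named are those called in *Card9* KO MI against WT MI, the 6 largest changes per direction among called, non-overlapping members of the other comparisons, the 5 most and 5 least abundant of each subunit, and *Mrpl12*, *Mrpl58*, *Mrps30*, *Mrps18a*, *Mrps18b*, *Mrps18c*, *Mrps36*, *Mrpl3*, *Mrpl44*, *Mrps6*, *Mrps12*, *Mrps16* and *Mrps22*. Of other lists, the 2 largest called changes per direction of WT MI against WT sham are named. Members and lists were chosen with earlier results of these data known. The respiratory chain and cytosolic ribosome lists were formed from symbols after values were seen. Alternatives were an added FPKM of 0.1 or 5, other filters, 3 other scalings, the replicate number as a block, a fit limited to the 2 groups compared, eBayes with no trend, and each library left out in turn.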

Additional observations from a re-analysis of the deposited data

How the results depend on the processing

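The 6 counts of calls, 3 medians and 3 subunit ratios were recomputed under each alternative. Of these values 108 stayed close, counts within 1.5 times the count given above and medians and ratios within the spread. By over 1.5 times, 27 counts became smaller and 9 larger. Of the medians and ratios 18 moved by more than the spread, and 0 values reversed. For single named members 326 values held, 34 were no longer called and 0 reversed. The causes of the changes below were not tested. No member reached a fold change of at least 2 with a call, or passed the recomputed screen, so all 5 counts above 0 became 0 under both rules.

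In WT MI against WT sham, eBayes without trend called 12 members lower (15.4%), beside 8.10% of all genes. Leaving out 1 library gave fewer calls of lower among the members and among all genes. The median of -0.14 became -0.30 with upper-quartile scaling, -0.33 with quantile normalization and -0.29 without the 100 most abundant genes, and ran from -0.20 to -0.11 with 1 library left out. In *Card9* KO MI against WT MI, the 1 member called lower became 0 with 0.1 added, without a filter, with only the 2 groups compared, without trend and with each of 4 libraries left out (0 to 0). It became 2 with 5 added, with only genes listed in all 6 libraries and without the 100 most abundant genes, and 3 with a mean FPKM of at least 5. The median ran from -0.17 to -0.12 with 1 library left out. In *Card9* KO MI against WT sham, 2 members were higher with a mean FPKM of at least 5 and with only genes listed in all 6 libraries, and leaving out 1 library gave 24 to 35 lower and 1 to 2 higher. The median of -0.34 became -0.51 with upper-quartile scaling, -0.54 with quantile normalization and -0.51 without the 100 most abundant genes.

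The ratio of the subunit sums, 2.21 in WT sham, 2.09 in WT MI hearts and 2.16 in *Card9* KO MI hearts, became 2.37, 2.25 and 2.29 by structure and 1.08, 1.06 and 1.18 as a ratio of medians. Without the most abundant member of each subunit it was 2.15 in WT sham, 2.09 in WT MI hearts and 2.14 in *Card9* KO MI hearts, and the libraries of the first and last group overlapped. Same-numbered libraries did not deviate together (correlations 0.0024, 0.0204 and -0.0083), so the replicate numbers were not taken as pairs. With the replicate block, WT MI had 17 members lower and 1 higher than WT sham, 0 were called against WT MI, and 40 were lower and 1 higher in *Card9* KO MI than in WT sham. At 3026676 to 4286477 fragments and 2 libraries per group, single members were measured with a median SE of 0.12 on the log2 scale.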
